A study of Mus musculus with 12 samples.

Results

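The osteoblast transcription factors described here are Runx2, Sp7, Dlx3, Dlx5, Msx1, Msx2, Twist1, Sox9 and Fosl2, chosen by name as known factors of osteoblast commitment and found by their Ensembl identifiers. All 9 were among the 54532 identifiers of the deposited expression table. The study compared bone marrow mesenchymal stem cells (MSCs) of C57BL/6 mice, 4 weeks old, at passage 3, by RNA sequencing 5 days after induction. Control cells came from Chd7fl/fl mice, which carry loxP sites around exon 2 of the gene for the chromatin remodeler CHD7 and no Cre. Cells labelled knockout came from Prx1-cre;Chd7fl/fl mice, in which Cre is driven by a promoter active in early limb mesenchyme, so that cells of other origins keep the floxed gene. Both alleles were floxed in all groups, and only the knockout groups carried Cre. Dexamethasone was at 10 nM in the osteogenic and at 1 µM in the adipogenic medium. The osteogenic medium further had ascorbic acid (50 µM) with β-glycerophosphate (10 mM), and the adipogenic medium insulin (10 µg/ml) with isobutylmethylxanthine (0.5 µM). Each of the 4 groups (control or knockout, osteogenic or adipogenic) had 3 libraries, 12 in all. The labels do not say whether the 3 came from separate animals, so a p-value measures only the spread between these libraries.

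Osteoblasts arise from mesenchymal progenitors under a network of DNA-binding proteins. RUNX2 commits progenitors to the lineage and switches on bone matrix genes, and osterix, encoded by Sp7, acts downstream of it. The homeobox factors DLX3, DLX5, MSX1 and MSX2 act upstream of or beside RUNX2, TWIST1 restrains its activity, SOX9 directs the related chondrocyte lineage, and FOSL2 is an AP-1 subunit of differentiating osteoblasts.

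4 of the 9 factors bind DNA through a homeodomain, and coding sequences of 3 of them are shown for how near the members are to each other. Below are the 51 coding bases around the third helix, which touches the DNA, at codons 42 to 58 of each homeobox, read from GENCODE M21 transcripts. Dlx2 is added as the gene whose level was most like that of Dlx5. Capitals mark bases that differ from Dlx5.
Dlx5: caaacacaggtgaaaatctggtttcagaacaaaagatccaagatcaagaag
Dlx3: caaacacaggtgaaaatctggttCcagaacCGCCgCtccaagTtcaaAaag
Dlx2: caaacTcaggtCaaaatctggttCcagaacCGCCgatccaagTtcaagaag
Msx2: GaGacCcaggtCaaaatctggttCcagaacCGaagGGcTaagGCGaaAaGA
Over this stretch Dlx3 and Dlx2 each differed from Dlx5 at 8 bases, and Msx2 at 16. Over the whole homeobox of 180 bases, Dlx3 and Dlx5 were identical at 71.7% of bases, Dlx2 and Dlx5 at 75.6%, and Dlx5 and Msx2 at 58.9%.

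The RefSeq promoter set (GRCm38.p6) held windows for 5 of the 9 factors, Runx2, Msx1, Msx2, Twist1 and Fosl2. The 250 bases before each RefSeq start were searched on both strands for short motifs, and the share of all 32851 windows that hold each one is given. The RUNX core TGTGGT was in 14% of windows. The homeobox core TAATTG was in 7.17% and the SOX core ACAATG in 10.7%. The E-box CANNTG, which reads the same on both strands, was in 66.2% and the AP-1 motif TGANTCA in 6.75%. The GC box GGGCGG was in 32.7% and the TATA box TATAAA in 12.4%. The matches shown do not overlap each other. The bases outside any annotated exon are shown for the 3 factors that have them, since Runx2 passed in both media, Twist1 was the most abundant of the factors that rose in adipogenic knockouts, and Msx1 separated the genotypes in both media. Capitals mark matches.
Twist1, chr12:33957421-33957670, plus strand: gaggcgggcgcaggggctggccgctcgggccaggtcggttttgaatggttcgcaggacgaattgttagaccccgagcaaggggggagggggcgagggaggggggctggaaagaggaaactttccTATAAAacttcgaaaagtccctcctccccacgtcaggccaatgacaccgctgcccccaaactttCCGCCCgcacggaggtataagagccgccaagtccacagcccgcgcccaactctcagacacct
Msx1, chr5:37824586-37824835, minus strand: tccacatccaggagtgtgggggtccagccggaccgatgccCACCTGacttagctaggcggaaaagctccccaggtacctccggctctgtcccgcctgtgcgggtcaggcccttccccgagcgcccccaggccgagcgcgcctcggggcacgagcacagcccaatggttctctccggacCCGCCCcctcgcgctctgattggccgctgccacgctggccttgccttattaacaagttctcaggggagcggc
Runx2, chr17:44814798-44814877, minus strand: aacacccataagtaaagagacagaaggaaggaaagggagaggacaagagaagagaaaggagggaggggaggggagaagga
The Twist1 window held 1 TATA box and 1 GC box. The Msx1 window held 1 E-box and 1 GC box. The Runx2 window held 1 RUNX core and 1 E-box, both outside the stretch shown, and its GC content of 44.8% was the lowest of the 5, which reached 68%. These matches describe letters and were not tested as binding sites.

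Values are FPKM, fragments per kilobase of gene with the depth divided out, so levels can be compared between genes. Whole fragments recovered from the steps between values numbered 17490461 to 21092369 per library on genes, and 3 fragments on a gene of 1 kb corresponded to 0.143 to 0.185 FPKM. The targeted gene, Chd7, had mean FPKM of 2.69 ± 0.0682 (control) and 2.22 ± 0.166 (knockout) after osteogenic induction (SD, n = 3, limma adjusted p = 0.160), and these libraries did not overlap. After adipogenic induction the means were 2.10 ± 0.255 (control) and 2.29 ± 0.235 FPKM (knockout; SD, n = 3, limma adjusted p = 0.428). A value for the whole gene cannot show the loss of exon 2, and Chd7 was not lower in adipogenic medium, so groups are named by their labels throughout. Macrophage markers were high in every library. Lyz2, macrophage lysozyme, ranged from 3845 to 14411 FPKM, and the 11 stromal markers summed to 494 to 643 FPKM. Of these, Itgb1 (317 to 412 FPKM), Col3a1 (52.9 to 102 FPKM) and Pdgfrb (39.9 to 87.1 FPKM) were highest, whereas Thy1 and Lepr stayed at or below 1.03 and 1.13 FPKM. The 9 adipocyte markers were split in both media. Adipoq, Plin1, Cidec and Lep reached at most 0.600, 0.0951, 0.0656 and 0.0316 FPKM, while Cd36 (63.1 to 228 FPKM), Lpl (53.8 to 117 FPKM), Cebpa (40.7 to 108 FPKM), Fabp4 (12.7 to 39.2 FPKM) and Pparg (3.85 to 12.4 FPKM) were well detected. Cd36, Lpl and Fabp4 are also made by macrophages. Alpl, the alkaline phosphatase of osteoblasts, was at 4.41 to 6.62 FPKM in osteogenic and 21.96 to 57.5 FPKM in adipogenic libraries. In such bulk samples fewer cells of a type and less RNA per cell cannot be told apart. Control library 2 in adipogenic medium stood apart: its mean correlation over genes was 0.941 with the other 2 controls and 0.967 with the knockouts of that medium. Calls of the factors that it changed are given without it as well, as are those of some of the genes named with them. It was picked from these same data for its likeness to the knockouts. Leaving it out favours wider genotype differences and a narrower control spread, so calls without it are no independent support.

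All 9 factors were detected in every library, at levels that spanned from Dlx3 at 0.0913 FPKM to Fosl2 at 21.1 FPKM. Twist1 and Fosl2 held the first and second places in all 12 libraries, and Sp7 always came next. Runx2 and Dlx5 followed, then Msx2 and Sox9, then Msx1, and Dlx3 was lowest throughout. Neighbours in this order often overlapped. In control osteogenic libraries Fosl2 and Twist1 overlapped, as did Sox9 and Msx2, whereas Sp7, Runx2 and Dlx5 were separate. In knockout adipogenic libraries only Sp7 and Dlx5 overlapped among neighbours. Dlx3 and Msx1 stayed under the filter of 1 FPKM in at least 3 libraries, so 7 of the 9 were among the 12871 genes tested.

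**Figure D1:**
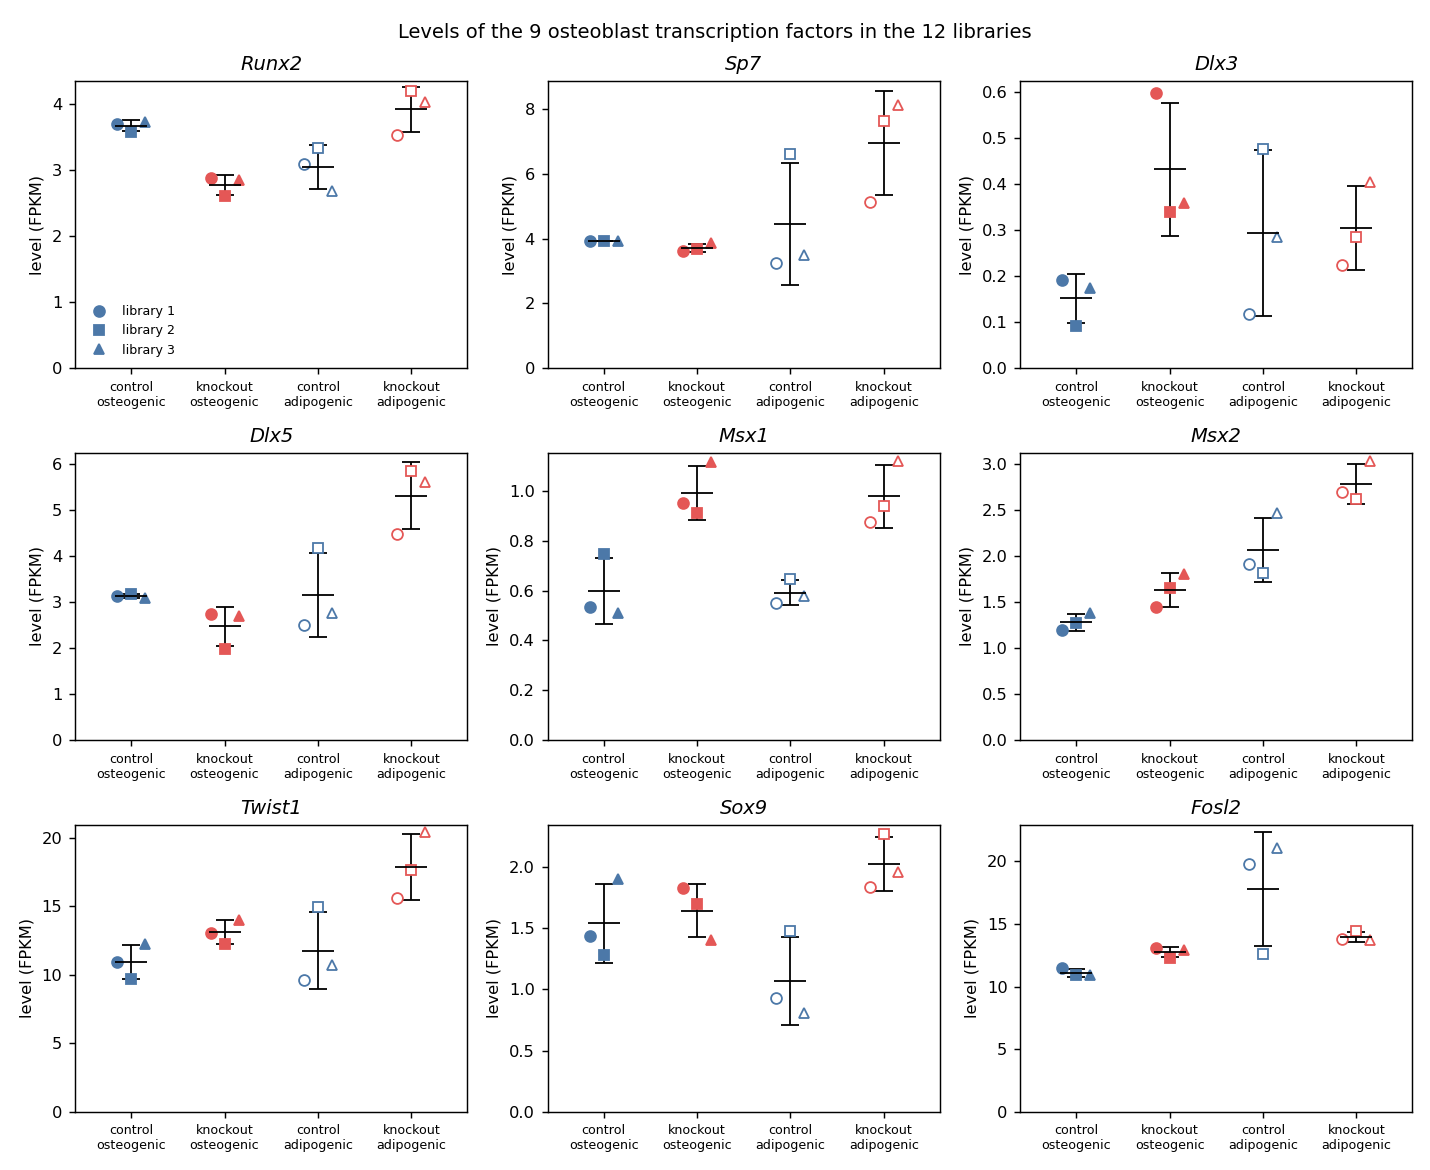
Level of each factor in FPKM (vertical axis, from 0, own scale per panel) in the 12 libraries by group (horizontal axis), with symbols for library 1 to 3 and bars for the group mean and SD. Control library 2 in adipogenic medium (open blue square) lay near the knockouts for Sp7, at 6.62 FPKM, and Fosl2, at 12.6 FPKM.

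The summed level of the 9 factors in osteogenic medium was 36.4 ± 1.61 FPKM for controls and 39.5 ± 1.89 FPKM for knockouts, and in adipogenic medium 44.2 ± 2.26 and 54.1 ± 5.29 FPKM (SD, n = 3). Twist1 and Fosl2 made up most of it. Fosl2 held 40.5% ± 11.5 of the sum in adipogenic controls and 26.0% ± 2.58 in adipogenic knockouts, and Runx2 held 10.1% ± 0.233 in osteogenic controls and 7.03% ± 0.118 in osteogenic knockouts (SD, n = 3).

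**Figure D2:**
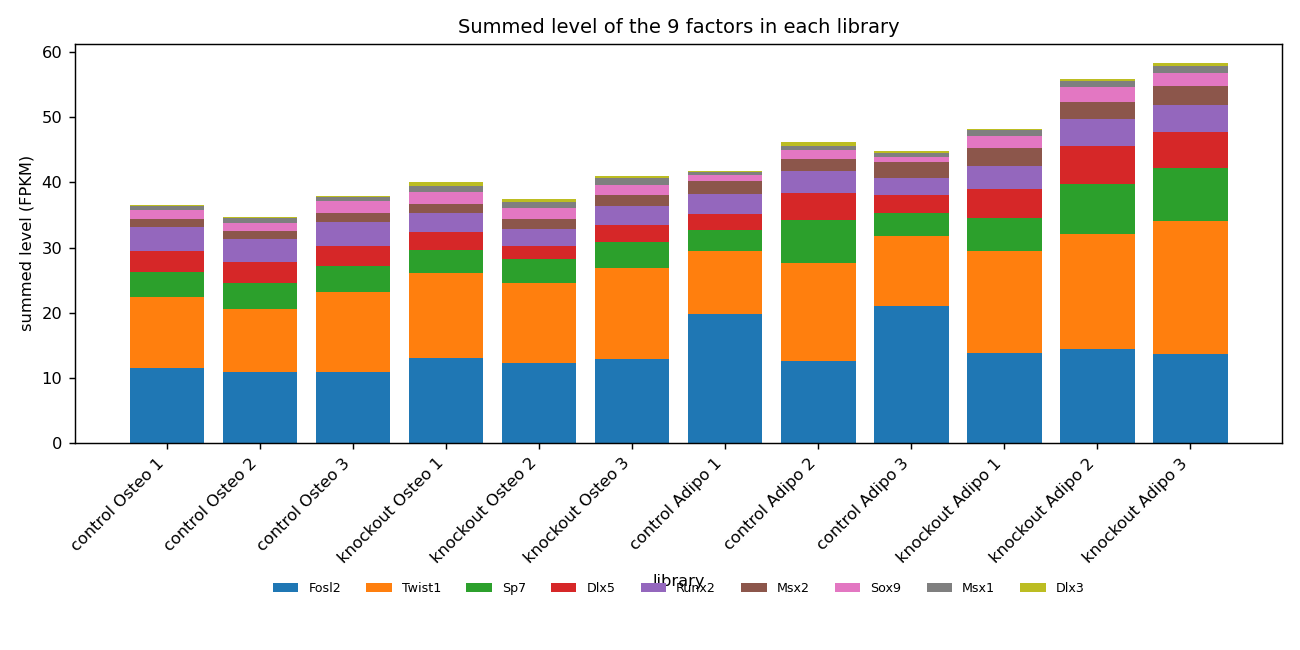
Summed FPKM of the 9 factors (vertical axis) in each of the 12 libraries (horizontal axis), stacked by factor. The adipogenic knockout libraries had the highest bars, at 48.2 to 58.3 FPKM, and the share of Fosl2 (lowest segment) was largest in adipogenic controls 1 and 3.

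The first comparison asked how the factors differed between knockout and control cells in osteogenic medium. Runx2 was lower in the knockout libraries, and it alone of the 7 tested factors passed limma at an adjusted p of 0.05. Among all genes tested, 9.09% passed and 4.15% were lower. Runx2 (ENSMUSG00000039153) lies on chromosome 17 of GRCm38 from 44495987 to 44814797, minus strand, and shares 5.87% of its exonic bases with the antisense gene Runx2os1, whose reads may be counted with it. Control libraries held 3.70, 3.58 and 3.73 FPKM of Runx2, and knockout libraries 2.88, 2.60 and 2.86 FPKM. The groups did not overlap, and the means of 3.67 ± 0.0828 and 2.78 ± 0.151 FPKM (SD, n = 3) stood in a ratio of 0.757. On the log2(FPKM + 1) scale, which understates changes of low genes, the change was -0.31 (SE 0.0727, limma adjusted p = 0.0276). This call was lost when any of the 6 osteogenic libraries was left out, with limma adjusted p from 0.0713 to 0.0997 and changes of -0.33 to -0.27, so the direction remained. It was lost as well under TPM scaling (limma adjusted p = 0.171), without the filter (0.0645), with same-numbered libraries treated as blocks (0.0649) and relative to 5 stromal genes (0.0520).

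Neither Sp7 nor Dlx5, the factors closest to Runx2 in the network, passed. Sp7 (chromosome 15, 102356606 to 102367182), the zinc finger factor downstream of RUNX2, was at 3.94, 3.92 and 3.93 FPKM in control and 3.62, 3.69 and 3.86 FPKM in knockout libraries. The knockouts were all lower, but the log2 change of -0.06 had a 95% interval from -0.52 to 0.40 (limma adjusted p = 0.910), in a fit that shares the spread over all 12 libraries. Dlx5 (chromosome 6, 6877805 to 6882085), which acts upstream of Runx2, was at 3.12, 3.18 and 3.08 FPKM in control and 2.73, 1.97 and 2.70 FPKM in knockout libraries. These did not overlap either, and the log2 change of -0.26 (SE 0.149) did not pass (limma adjusted p = 0.342).

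The remaining homeobox factors and Twist1 lay on the other side. Msx1 (chromosome 5, 37820485 to 37824583) was at 0.534, 0.749 and 0.512 FPKM in control and 0.953, 0.910 and 1.12 FPKM in knockout libraries. The groups did not overlap, on 97 against 167 fragments, a ratio of rates of 1.67 (exact 95% interval 1.29 to 2.17, which covers counting error only). Msx1 was not tested for low values, and without the filter its limma adjusted p was 0.0971. Dlx3 (chromosome 11, 95120119 to 95125296) was at 0.190, 0.0913 and 0.174 FPKM in control and 0.598, 0.339 and 0.358 FPKM in knockout libraries, without overlap. Only 21 and 61 fragments stood behind these values, a ratio of rates of 2.82 (1.69 to 4.87), and without the filter the limma adjusted p was 0.201.

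Msx2 (chromosome 13, 53466884 to 53473074), the near relative of Msx1, had means of 1.28 ± 0.0938 and 1.63 ± 0.183 FPKM, and a log2 change of 0.21 (limma adjusted p = 0.208). Twist1 (chromosome 12, 33957671 to 33959829), a bHLH factor that binds and restrains RUNX2, had means of 10.95 ± 1.26 and 13.1 ± 0.871 FPKM, and a log2 change of 0.24 (limma adjusted p = 0.377). Both were higher in every knockout than in every control library but did not pass. Fosl2 (chromosome 5, 32135801 to 32157842) was at 11.1 ± 0.324 and 12.7 ± 0.418 FPKM, and its change of 0.18 (limma adjusted p = 0.506) passed only when the fit used the 6 osteogenic libraries alone (limma adjusted p = 0.0141) or left out adipogenic control 2 (0.0107). Sox9 (chromosome 11, 112782224 to 112787760) overlapped between the groups, at 1.54 ± 0.323 and 1.65 ± 0.216 FPKM, with a log2 change of 0.06 (limma adjusted p = 0.842). In all, 8 of the 9 factors did not overlap, 5 higher and 3 lower in the knockouts, of which 6 were tested, where 44.3% of all tested genes did not overlap, 21.0% higher and 23.2% lower. The median log2 change of the 7 tested factors was 0.06, beside -0.01 for all genes tested.

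Known partners, inhibitors and relatives of the factors were compared in osteogenic medium too. Of 22 tested partners and inhibitors, 4 were higher and 5 lower in the knockouts, where 4.94% of all genes tested were higher and 4.15% lower, and their median log2 change of -0.01 was that of all genes. With adipogenic control 2 left out of the fit, 5 were higher and 7 lower, where 22.2% of all genes passed. Id1, Id2 and Id3, whose products bind the E-protein partners of bHLH factors and keep them from DNA, fell, with Id1 at 51.7 against 21.2 FPKM (log2 change -1.25, SE 0.175, limma adjusted p = 0.00216) and Id2 at 88.0 against 44.7 FPKM (-0.96, limma adjusted p = 0.000398). Of 11 tested family members of the factors, Runx3 was higher (0.42, limma adjusted p = 0.0480) and Sp3 lower (-0.27, limma adjusted p = 0.0175), and 9 did not pass.

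Of 15 tested osteoblast products, 3 were higher in the osteogenic knockouts and 12 did not pass, beside the 9.09% of all genes that passed, and the median log2 change of the 15 was 0.01. Of those 12, Alpl, Bglap2, Pdpn and Smpd3 were lower without overlap, and Pth1r and Ank higher, where 44.3% of all tested genes did not overlap. With adipogenic control 2 left out of the fit, 4 products were higher and 2 lower, where 22.2% of all genes passed. Spp1, osteopontin, was at 1378 against 2130 FPKM (0.63, limma adjusted p = 0.000950), Sparc, osteonectin, at 447 against 619 FPKM (0.47, limma adjusted p = 0.00282), and Col1a2, a chain of type I collagen, at 255 against 311 FPKM (0.28, limma adjusted p = 0.0242). Of 15 chondrocyte genes, 11 stayed under the filter and were not tested, and 3 of the 4 tested were higher. Col2a1, cartilage collagen and a target of SOX9, was at 0.975 against 3.04 FPKM (1.02, limma adjusted p = 0.00282), while Sox9 itself did not pass. Spp1 and Sparc are also made by other cells, and the 13 macrophage markers summed to 14730 to 15241 FPKM in control and 16238 to 16698 FPKM in knockout libraries. Lyz2 made up most of this sum, with means of 9182 and 11113 FPKM. Of the 13, 1 passed as higher (C1qa) and 2 as lower (Csf1r and C1qb), and their median log2 change was -0.13. Endothelial markers summed to 19.5 to 20.9 against 28.7 to 29.8 FPKM, with 3 of 6 tested higher, among them Cdh5. Eng made up most of that sum, with means of 13.4 and 16.6 FPKM. Stromal markers summed to 494 to 510 against 567 to 594 FPKM, with 4 of 9 tested higher. Itgb1 made up most of that sum, with means of 318 and 371 FPKM. Nt5e, among the 4, reached 1 FPKM only in osteogenic knockouts, and Emcn, among the 3, only in knockouts. Both were tested only through groups where they were high. The part of these cell types in the results was not tested.

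The second comparison asked the same in adipogenic medium. Dlx5, Twist1, Sox9, Msx2 and Runx2 passed limma, 5 of 7 tested, all higher, where 33.2% of all genes passed and 16.7% were higher. Sp7 and Fosl2 did not pass, and Fosl2 was the 1 tested factor with a lower mean. The median log2 change of the 7 was 0.56, beside -0.01 for all genes tested. Rescaling the libraries to equal sums of FPKM (TPM) moved the median of all genes to 0.14 in this comparison, 0.16 in the interaction and -0.10 between the media in controls, and changed the direction of no factor that passed. With it the calls over all genes in this comparison lay mostly on 1 side, with 3252 higher and 900 lower (25.3% and 6.99% of genes tested) against 2153 and 2123 as reported.

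**Figure D3:**
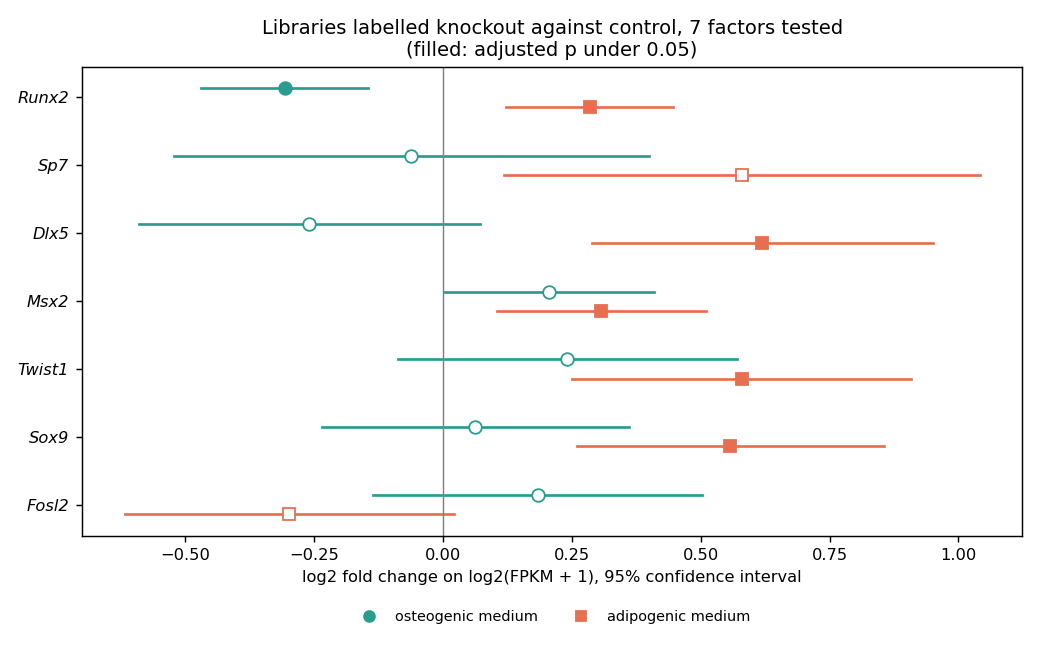
Log2 fold change on log2(FPKM + 1) of the libraries labelled knockout against control (horizontal axis) with its 95% confidence interval, for the 7 tested factors, in osteogenic (circles) and adipogenic medium (squares). Filled symbols passed at an adjusted p of 0.05. Runx2 lay at -0.31 in osteogenic and at 0.28 in adipogenic medium.

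Dlx5 had the largest log2(FPKM + 1) change of the 7, while Sox9 had the larger ratio of mean FPKM (1.89). Control libraries held 2.50, 4.18 and 2.75 FPKM of Dlx5, and knockout libraries 4.47, 5.84 and 5.60 FPKM. The second control approached the knockouts without overlap, and the log2 change was 0.62 (SE 0.149, limma adjusted p = 0.0106), a ratio of means of 1.69. Runx2 was at 3.10, 3.34 and 2.69 FPKM in control and 3.54, 4.20 and 4.02 FPKM in knockout libraries. It did not overlap, and the log2 change was 0.28 (SE 0.0727, limma adjusted p = 0.0141), opposite in sign to that in osteogenic medium.

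Twist1 was at 9.64, 14.97 and 10.7 FPKM in control and 15.6, 17.6 and 20.4 FPKM in knockout libraries, a log2 change of 0.58 (SE 0.148, limma adjusted p = 0.0139). Sox9 was at 0.927, 1.48 and 0.806 FPKM in control and 1.84, 2.27 and 1.96 FPKM in knockout libraries, a log2 change of 0.56 (SE 0.134, limma adjusted p = 0.0107). Msx2 was at 1.91, 1.82 and 2.47 FPKM in control and 2.70, 2.62 and 3.03 FPKM in knockout libraries, a log2 change of 0.31 (SE 0.0914, limma adjusted p = 0.0273). None of these 3 overlapped, and for Twist1 and Sox9 control 2 was the control nearest the knockouts, whereas for Msx2 it was the lowest of the 6.

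Sp7 varied widely within both groups. It was at 3.24, 6.62 and 3.49 FPKM in control and 5.14, 7.65 and 8.13 FPKM in knockout libraries. Control 2 lay above the lowest knockout, and the log2 change of 0.58 (SE 0.207) just missed the threshold (limma adjusted p = 0.0544). Fosl2 ran the other way, at 19.8, 12.6 and 21.1 FPKM in control and 13.8, 14.4 and 13.7 FPKM in knockout libraries. Controls 1 and 3 were the highest of the 12 libraries and control 2 fell below all 3 knockouts, with a log2 change of -0.30 (SE 0.144, limma adjusted p = 0.136).

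The factors of lowest level differed from each other. Msx1 was at 0.550, 0.648 and 0.578 FPKM in control and 0.877, 0.942 and 1.12 FPKM in knockout libraries, again without overlap, on 99 against 172 fragments, a ratio of rates of 1.64 (1.28 to 2.13). Without the filter its limma adjusted p was 0.0433. Dlx3 overlapped, at 0.292 ± 0.180 and 0.304 ± 0.0911 FPKM (SD, n = 3), on 43 and 45 fragments. In all, 6 of the 9 factors did not overlap, all of them higher in the knockouts, 5 of them tested, where 38.6% of tested genes did not overlap and 20.2% were higher.

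These calls depended on the libraries in the fit. With only the 6 adipogenic libraries, all 5 factors lost their call at unchanged log2 changes (limma adjusted p from 0.0574 to 0.108), and without the filter Msx2 did (0.0666), whereas Sp7 passed under TPM scaling (0.0440). Without control library 2, Sp7 passed as higher (0.85, limma adjusted p = 0.000612) and Fosl2 as lower (-0.52, limma adjusted p = 1.2e-05), while Msx2 missed the threshold (0.25, limma adjusted p = 0.0502), so that 6 of 7 factors passed. In that fit 6569 of the 12871 genes tested passed, beside 4276 as reported. Control 2 was left out as the control most like the knockouts, so calls gained there are no support of their own. Without control library 1, Msx2 and Twist1 were lost (limma adjusted p = 0.0892 and 0.0526), and without control library 3, Runx2 and Twist1 (0.0503 and 0.0507). Without knockout library 2, Runx2 was lost (0.0562), and without knockout library 3, Msx2, Runx2 and Twist1 (0.101, 0.0530 and 0.0592), whereas Sp7 passed without knockout library 1 (0.0234). Dlx5 and Sox9 passed whichever of the 12 libraries was left out.

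**Figure D4:**
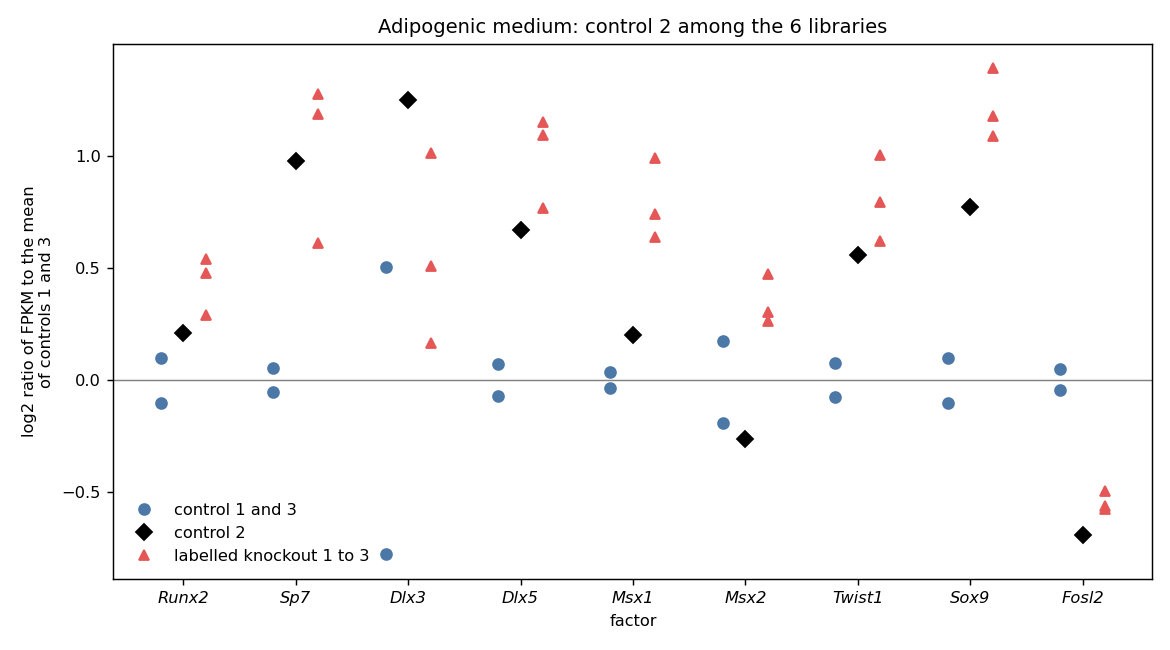
Log2 ratio of each library's FPKM to the mean of controls 1 and 3 (vertical axis), for the 9 factors (horizontal axis), in the 6 adipogenic libraries. Control 2 (black diamonds) was nearer to the mean of the knockouts than to controls 1 and 3 for Sp7, Dlx3, Dlx5, Twist1, Sox9 and Fosl2, and not for Runx2, Msx1 and Msx2.

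Marker levels of several cell types also differed between the adipogenic groups, and the part of these cell types in the factor values was not tested. The summed macrophage markers were at 19753, 10104 and 19665 FPKM in the 3 adipogenic controls and 8213 to 9748 FPKM in the knockouts. Of the 13, 7 were lower and 2 higher (C1qa and C1qb) in the knockouts, where 33.2% of all genes passed and 16.5% were lower. Adgre1, the macrophage antigen F4/80, was at 1171, 227 and 1136 FPKM in controls and 127 to 255 FPKM in knockouts. The 11 stromal markers summed to 555 to 589 FPKM in controls and 613 to 643 FPKM in knockouts, and the 8 endothelial markers to 21.2 to 25.1 and 31.0 to 34.2 FPKM. Single genes made up most of both sums. Itgb1 had means of 353 and 405 FPKM among the stromal markers, and Eng 16.9 and 22.5 FPKM among the endothelial ones. Of 9 tested stromal markers 3 were higher and 2 lower (Ly6a and Cxcl12), and of 6 tested endothelial markers 4 were higher and 0 lower. Emcn, among these 4, met the filter only through knockout libraries. Relative to the geometric mean of 5 stromal genes (Prrx1, Pdgfra, Pdgfrb, Col1a2 and Col3a1) of the same library, an alternative chosen after seeing the data, all 5 higher factors lost their call. The changes then were 0.37 for Dlx5, 0.36 for Sox9, 0.30 for Twist1, 0.10 for Msx2 and 0.05 for Runx2 (limma adjusted p from 0.0958 to 0.714), and Fosl2 passed as lower (-0.57, limma adjusted p = 0.000954). Prrx1 and Pdgfrb, which are among the 5 genes, were themselves higher in the knockouts. The scaling thus moved the changes of the factors down, and no share over all genes was taken under it. Calls lost or gained with it are therefore not results about the factors.

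Relatives of the factors were split in adipogenic medium. Of 11 family members tested 3 were higher, 1 was lower and 7 did not pass, close to the 33.2% of all genes that passed, and without control 2 the counts were 1 higher and 4 lower. Dlx2, the relative of Dlx5, was at 0.618, 1.72 and 0.951 FPKM in control and 2.18, 2.77 and 3.67 FPKM in knockout libraries (log2 change 0.90, SE 0.200, limma adjusted p = 0.00724). Twist2, the relative of Twist1, rose by 0.36 (limma adjusted p = 0.0316), a call lost without control 2 (0.32, limma adjusted p = 0.0572), and Jund, an AP-1 subunit, was lower (-0.51, limma adjusted p = 0.00246). Of 22 partners and inhibitors, 11 were higher and 4 lower, where 16.7% of all genes were higher and their median was -0.01. The median log2 change of the 22 was 0.29. Without control 2 the counts were again 11 and 4, beside 24.3% higher and 26.8% lower among all genes. Id1, lower in osteogenic knockouts, was higher here, at 30.4 against 57.0 FPKM (0.92, limma adjusted p = 0.00336), as was Id4 (0.91, limma adjusted p = 0.00223), whereas Id2 was lower (-0.41, limma adjusted p = 0.0112).

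Among osteoblast products, 5 of 15 tested were higher and 2 lower, where 33.2% of all genes passed, and 8 were higher and 4 lower without control 2, where 6569 of the 12871 genes did. Bglap, among the 5, was at 1.28 to 1.72 FPKM in the adipogenic knockouts and at most 0.850 FPKM elsewhere. It met the filter only through the group where it was high, so its call is no support. Smpd3, a sphingomyelinase of mineralising bone, was at 0.419, 1.80 and 0.401 FPKM in controls and had a mean of 4.67 FPKM in knockouts (1.68, limma adjusted p = 0.000435). Without control 2 the control mean was 0.410 FPKM in place of 0.873 FPKM, and the change was 2.01. Ibsp, bone sialoprotein, was at 0.480 against 2.58 FPKM (1.26, limma adjusted p = 0.000810). Pdpn fell from 57.1 to 12.0 FPKM (-2.10, limma adjusted p = 0.000162) and Tnfsf11, the osteoclast factor RANKL, from 7.21 to 0.815 FPKM (-1.96, limma adjusted p = 0.00570), with controls at 9.04, 1.92 and 10.7 FPKM. Without control 2 these changes were -2.44 and -2.59. Alpl was at 57.5, 22.0 and 50.1 FPKM in controls and 25.1 to 29.6 FPKM in knockouts, and did not pass (-0.53, limma adjusted p = 0.169). Without control 2 it passed as lower (-0.95, limma adjusted p = 4.2e-05), and its interaction of genotype and medium was -0.69 (limma adjusted p = 0.00277). All 4 tested chondrocyte genes were higher, with and without control 2, led by Col11a1 at 3.44 against 9.12 FPKM (1.20, limma adjusted p = 4.31e-05) and Col10a1 at 1.39 against 3.81 FPKM (1.02, limma adjusted p = 0.000446). The other 11 of the 15 chondrocyte genes stayed under the filter, among them Acan, the cartilage proteoglycan, which reached only 0.113 FPKM at most.

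Whether the genotype difference changed with the medium was tested as an interaction. Runx2 and Dlx5 passed, 2 of 7 tested, where 20.4% of all genes did and 10.9% with a positive sign (1716 positive and 564 negative calls under TPM scaling, 1397 and 1233 as reported). For Runx2 the change was higher by 0.59 in adipogenic medium (SE 0.103, limma adjusted p = 0.00344) and for Dlx5 by 0.88 (SE 0.210, limma adjusted p = 0.0160). Both passed whichever single library was left out, and both lost the call relative to the 5 stromal genes (limma adjusted p = 0.0597 and 0.0795), where Fosl2 alone passed, as lower (-0.66, limma adjusted p = 0.00790). That scaling moved these values down as well, without a share over all genes to set beside the counts. Without adipogenic control 2, 6 of 7 passed, with Sp7 (0.91, limma adjusted p = 0.00320), Sox9 (0.63, 0.00947) and Twist1 (0.51, 0.0228) higher and Fosl2 lower (-0.70, 2.18e-05). In that fit 42.2% of all genes passed, 19.7% with a positive and 22.5% with a negative sign. The interaction of Msx2 was 0.10 with a 95% interval from -0.19 to 0.39. Id1, an inhibitor of bHLH factors, had an interaction of 2.17 (limma adjusted p = 0.000324).

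The media were also compared within each genotype, and these comparisons share their libraries with those of the genotypes. In control cells Fosl2 and Msx2 were higher in adipogenic medium, 2 of 7 tested, where 22.8% of all genes passed and 10.5% were higher (1354 higher and 1581 lower, or 647 and 1458 under TPM scaling). Of the 7, 3 did not overlap between the media, beside 34.4% of all genes tested. Fosl2 rose from 11.1 ± 0.324 to 17.8 ± 4.55 FPKM (log2 change 0.61, SE 0.144, limma adjusted p = 0.0162, and 0.82 without adipogenic control 2) and Msx2 from 1.28 ± 0.0938 to 2.07 ± 0.349 FPKM (0.42, SE 0.0914, limma adjusted p = 0.0115). Runx2 was lower without overlap (-0.21, limma adjusted p = 0.0600) and Sox9 overlapped (-0.30, limma adjusted p = 0.128). Without control library 2 both passed as lower (limma adjusted p = 0.0123 and 0.0115), and Runx2 did so too without adipogenic knockout 1 (0.0488) and relative to the 5 stromal genes (0.0330). Fosl2 lost its call without osteogenic control 2 or 3, or adipogenic control 1 or 3 (limma adjusted p from 0.0513 to 0.0636), and with only the 6 control libraries in the fit both Fosl2 and Msx2 did (0.116 and 0.0798).

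In cells labelled knockout all 7 tested factors were higher in adipogenic medium without overlap, where 52.5% of all genes did not overlap and 26.0% were higher. Dlx5, Sp7, Msx2 and Runx2 passed, 4 of 7, beside 27.9% of all genes and 13.9% that were higher (1785 higher and 1807 lower, or 1697 and 897 under TPM scaling). Dlx5 rose from 2.47 ± 0.429 to 5.30 ± 0.730 FPKM (0.86, SE 0.149, limma adjusted p = 0.00209), Msx2 from 1.63 ± 0.183 to 2.78 ± 0.219 FPKM (0.52, limma adjusted p = 0.00229) and Runx2 from 2.78 ± 0.151 to 3.92 ± 0.344 FPKM (0.38, limma adjusted p = 0.00371). Sp7 rose from 3.73 ± 0.124 to 6.97 ± 1.61 FPKM (0.73, SE 0.207, limma adjusted p = 0.0245), a call lost without any one of the osteogenic knockouts, without adipogenic knockout 2 or 3 (limma adjusted p from 0.0585 to 0.0907) and without the filter on low values (0.0559). Twist1 missed the threshold (0.42, limma adjusted p = 0.0605), and it passed without adipogenic control 1 (0.0434) or 2 (0.00888), in the 6 knockout libraries alone (0.0173) and with voom on recovered fragments (0.0483). Fosl2 (0.12, limma adjusted p = 0.568) passed without adipogenic control 2 (0.0338). Relative to the 5 stromal genes Runx2 (0.08) and Sp7 (0.40) did not pass (limma adjusted p = 0.525 and 0.175).

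**Figure D5:**
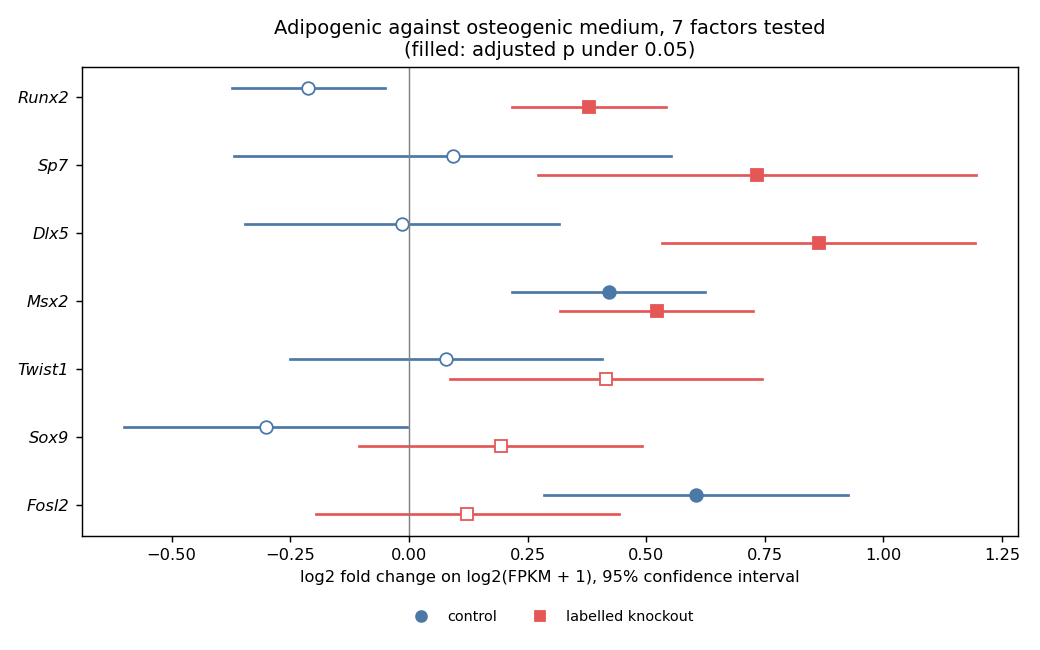
Log2 fold change on log2(FPKM + 1) of adipogenic against osteogenic medium (horizontal axis) with its 95% confidence interval, for the 7 tested factors, in control (circles) and labelled knockout libraries (squares). Filled symbols passed at an adjusted p of 0.05. Fosl2 changed by 0.61 in control and Dlx5 by 0.86 in knockout libraries.

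Of 15 tested osteoblast products, 7 were higher and 4 lower in adipogenic medium in either genotype, where 22.8% of all genes passed in control and 27.9% in knockout cells. Bglap, among the 7 in both genotypes, met the filter only through the adipogenic knockouts. Alpl was higher in adipogenic medium, by 2.61 in control (limma adjusted p = 0.000409) and 2.34 in knockout cells (limma adjusted p = 0.000250). Spp1 was lower, by -0.68 and -0.87 (limma adjusted p = 0.000527 and 3.56e-05). Fabp4, the fatty acid carrier of adipocytes that macrophages also express, was lower in adipogenic medium in control cells (-1.18, limma adjusted p = 0.000548) and higher in knockout cells (0.79, limma adjusted p = 0.00193). Of the 22 partners and inhibitors 3 were higher and 4 lower in control, and 10 higher and 5 lower in knockout cells. Id3 was higher in adipogenic medium in knockout cells (1.47, limma adjusted p = 2.81e-06), and in control cells it overlapped and did not pass (0.16, limma adjusted p = 0.184). Id1 was lower in control (-0.79, limma adjusted p = 0.0127) and higher in knockout cells (1.38, limma adjusted p = 0.000369).

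Across the 12 libraries, which share groups and depth, the factors differed in which genes they resembled. By Pearson's r of log2(FPKM + 1), Dlx5 was most like Dlx2 (0.963), Efnb1 (0.953) and Fdxr (0.948). Runx2 was most like Cdk20 (0.957), Zfp646 (0.935) and Rab29 (0.932), and Sp7 most like Rap1gap (0.964), Eno3 (0.952) and Pdgfd (0.952). Twist1 was nearest to Cavin1 (0.961) and Lurap1l (0.957), Sox9 to Dok1 (0.940), Gabbr1 (0.932) and Clba1 (0.930), and Msx2 to Snhg6 (0.967), Dstn (0.966) and Rnd3 (0.958). Fosl2 was nearest to Hif1a (0.988), Ptprm (0.983) and Eno1 (0.981), and Hif1a, the hypoxia factor, was likewise highest in adipogenic controls 1 and 3, at 51.9 and 57.8 FPKM beside 30.4 FPKM in control 2. Among the factors themselves, r was highest for Sp7 and Dlx5 (0.928) and lowest for Fosl2 and Sox9 (-0.59).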

How the data were processed

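RNA sequencing was described for 12 libraries of mouse MSCs in 4 groups of 3, with groups taken from the sample labels. FPKM per gene and library were deposited by the authors in a single table. The submitters' processing notes name Bowtie 0.12.2 and mm9, whereas the paper's software list names HISAT2 and Ballgown, so which of these made the values is not settled. Filters and use of strand are not given in the sources used here. Symbols and all coordinates come from GENCODE M21 (GRCm38), where 54409 of 54532 had a symbol. No column of another series was present (0 not used).

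The value of 1 fragment was recovered from exonic lengths, and 98.2% to 98.4% of values under 30 fragments were whole within 0.02. Fragments numbered 17490461 to 21092369 per library. Intervals cover counting error only. Limma 3.58.1 in R 4.3.3 was fitted to log2(FPKM + 1) of all 12 libraries, 1 mean per group, allowing the variance to follow the mean. P-values were adjusted by Benjamini-Hochberg over the 12871 genes with at least 1 FPKM in at least 3 libraries, at 0.05. The procedure was tested on simulated data. Exact permutation tests of single values, two-sided, cannot go below 0.1 for 3 against 3 and are not quoted.

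The 9 factors, the gene lists and the alternatives were chosen with earlier results of these data known. Named genes are the 9 factors, Chd7, up to 4 called genes of largest change per list and comparison, defining members of short lists, and the 3 genes most like each tested factor. A few genes that this rule names, and 1 sequence, are not reported here. The levels of Hif1a were added after values were seen. Alternatives were a pseudocount of 0.1, no filter, TPM scaling, median-ratio scaling, no trend, only the 6 libraries compared, a replicate block and each library left out in turn. Limma voom on recovered fragments and scaling to 5 stromal genes were added after seeing the data. Figures were drawn with Python and matplotlib.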

Additional observations from a re-analysis of the deposited data

Results flagged for a closer look

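Runx2 and Dlx5 differed between the media in their response to the genotype, by an interaction test. The log2 fold change of knockout against control was higher in adipogenic than in osteogenic medium by 0.59 for Runx2 (limma adjusted p = 0.00344) and by 0.88 for Dlx5 (limma adjusted p = 0.0160). For Runx2 the change was -0.31 in osteogenic and 0.28 in adipogenic medium, and all 3 knockouts lay below the controls in the first and above them in the second. For Dlx5 the changes were -0.26, which did not pass, and 0.62. With each library left out in turn, the limma adjusted p for Dlx5 ranged from 0.000536 to 0.0433. Relative to the 5 stromal genes both lost their call, at 0.44 for Runx2 and 0.71 for Dlx5 (limma adjusted p = 0.0597 and 0.0795), under a scaling for which no share over all genes was taken. The summed macrophage markers were lower in the adipogenic knockouts, at 8213 to 9748 FPKM against 10104 to 19753 FPKM in the controls, and their part in these differences was not tested. Groups of 3 are too small for a test of single libraries that stand apart.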

How the results depend on the processing

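Each result was recomputed under the alternatives. In osteogenic medium the count of genes passing, 1170 as reported, was 526 with TPM scaling, 3418 with only the 6 libraries compared, and 532 to 2854 with 1 library left out. The count of factors, 1 as reported, was 0 with TPM scaling, without the filter and relative to 5 stromal genes, 2 with only the 6 libraries, and 0 to 2 with 1 library left out. In adipogenic medium the count of genes, 4276 as reported, was 1671 with only the 6 libraries and 2791 to 6569 with 1 left out, and that of factors, 5 as reported, was 0 with only the 6 libraries, 1 (Fosl2, lower) relative to 5 stromal genes, and 2 to 6 with 1 left out. For the interaction, genes numbered 2630 as reported and 1798 to 5434 with 1 library left out, and factors 2 as reported, 1 relative to 5 stromal genes (Fosl2, lower, which had not passed) and up to 6. Between the media in controls, genes numbered 2935 as reported, 490 with only the 6 libraries and 1361 to 6156 with 1 left out, and factors 2 as reported, 0 with only the 6 libraries and 1 to 4. In knockouts, genes numbered 3592 as reported and 2500 to 5466 with 1 left out. Factors numbered 4 as reported, 3 to 6 with 1 left out, 5 with only the 6 libraries or with voom, and 2 relative to 5 stromal genes. Relative to the 5 stromal genes only the factors were counted, so those counts have no share over all genes beside them. The cause of these shifts was not tested.

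The labels do not say whether replicate numbers pair the libraries, and 3 libraries a group cannot settle it. Same-numbered deviations of control and knockout correlated at -0.04, 0.06 and -0.03 in osteogenic and at 0.466, 0.397 and -0.29 in adipogenic medium. Between the media the values were -0.06, 0.09 and 0.04 in control and 0.03, -0.01 and -0.02 in knockout cells. With the replicate block 744 genes and 0 factors passed in osteogenic medium, 3889 genes and 6 factors in adipogenic medium, and 1943 genes between the media in controls. The block took the osteogenic call of Runx2 (limma adjusted p = 0.0649) and gave Sp7 one in adipogenic medium (0.0305).

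Of 6668 recomputed values of named genes, 5941 kept their side of the threshold, among them 78 uncalled values that changed sign, 598 lost and 129 gained a call, and none that had been called changed sign. Depth limits Dlx3 (4 to 28 fragments a library) and Msx1 (28 to 66).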
